A study of Mus musculus with 23 samples.

Results

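Wild-type (WT) hematopoietic stem cells (HSC) were compared with WT lymphoid-primed multipotent progenitors (LMPP), on 3 HSC arrays and 2 LMPP arrays of the 23 in the study. Both populations were sorted from mouse bone marrow of transplant recipients whose marrow had been pooled. The HSC gate took lineage-negative, c-Kit-positive cells without Flk2 and CD48 but with CD150, and the LMPP gate took cells with Flk2 and CD48 but without CD150. The marrow on these 5 arrays carried WT alleles of the PI3K catalytic subunits p110α and p110δ; the other 18 arrays held HSC (9 arrays) and LMPP (9 arrays) lacking p110α (alphaKO), p110δ (deltaKO) or both (DKO). HSC WT array 1 was female and arrays 2 and 3 were male, and LMPP WT array 1 was female and array 2 male; the numbers only name the arrays. The labels give no age, strain or number of recipients, and do not say how many host cells remained, whether arrays of 1 group came from separate pools, or whether HSC and LMPP came from the same pools. The p-values therefore measure the spread between arrays of the same group, pooled over all 23 arrays, and this spread may be technical.

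HSC sit at the top of the blood hierarchy, divide rarely and can renew themselves. LMPP are downstream progenitors that have gained the Flk2 receptor, divide more often, have largely lost megakaryocytic and erythroid potential and can still form lymphocytes, granulocytes and monocytes. The transition is known for the loss of niche and platelet-associated genes and for early, low-level priming of myeloid and lymphoid genes. Several granule and immunoglobulin genes below were near the top of the scale in LMPP WT, so their levels there were not low. The reason was not tested.

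Each value is a log2 expression value of 1 transcript cluster, and each difference is the HSC WT mean minus the LMPP WT mean, so that a difference of 1 is a doubling in HSC. Limma was fitted to all 23 arrays with 1 mean for each of the 8 groups, and a gene was called at an adjusted p below 0.05. Gene names came only from the 6 tables in which the authors compared a knockout with WT, so 303 genes could be named and 277 passed the filter on low values; the other 26 were not tested. A gene entered those tables because it differed between a knockout and WT, using these same WT arrays. A gene listed as lower in knockout LMPP, for example, had to be high in LMPP WT. For 130 of the named genes tested this choice favoured a higher value in HSC WT, for 141 it favoured a lower one and for 6 it favoured both. Of the 130, 44 were called higher in HSC, and of the 141, 91 were called lower. Counts of named genes below are therefore descriptions and not independent evidence of a direction. The HSC minus LMPP difference over the 18 knockout arrays is given beside them; it contains no WT array, but the knockout values also decided which genes were listed, so it is no independent check of a named gene. Of the 101 named genes called lower in HSC, 26 had an HSC WT mean below the filter threshold of log2 4.95 and so passed the filter through other groups, and 1 of the 49 called higher had such an LMPP WT mean. A difference from so low a level describes the values and is no measure of true fold.

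Of the WT arrays, 2 stood apart. LMPP WT array 2 had a median of 5.29 and a standard deviation of 2.47 over all clusters, against medians of 4.83 to 5.04 and standard deviations of 2.68 to 2.77 on the other 22 arrays. Its mean correlation with the other LMPP arrays was 0.961, and that of the remaining LMPP arrays lay between 0.9805 and 0.986. HSC WT array 3 had the lowest mean correlation among HSC arrays, at 0.9838, with 0.9877 to 0.9906 for the rest. Over the clusters tested, the HSC WT arrays correlated with each other at 0.9747 to 0.9893, and the LMPP WT pair at 0.956. Their part in the results below was not tested beyond the values given without them.

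In WT marrow 2789 of 32978 clusters tested, or 8.46%, were called between HSC and LMPP, and 26.6% had an unadjusted p below 0.05. Of the calls, 1553 (4.71%) were higher and 1236 (3.75%) lower in HSC. The larger share changed side with the arrays and the filter: 411 were higher and 664 lower without LMPP WT array 2, 90 higher and 136 lower from the 5 WT arrays alone, and 1549 higher and 2774 lower with no filter on low values. The median difference over all clusters was 0.02. With every array centred on its own median, 82.9% of the calls were higher in HSC instead of 55.7%, and the median difference was 0.26. Differences of at least 4-fold were near balance, with 215 higher and 242 lower in HSC, while those of at least 16-fold were mostly lower in HSC, with 15 higher and 72 lower. The total was 1075 without LMPP WT array 2, and without HSC WT array 3 it was 1695. It was 8422 without LMPP WT array 1. Among the named genes tested, 49 were higher and 101 lower in HSC. Those counts were 19 and 74 without LMPP WT array 2, 31 and 84 without HSC WT array 3, 9 and 48 from the 5 WT arrays alone, and 5 and 26 with array weights. They were 60 and 89 without LMPP WT array 1.

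All 3 named members of the HSC identity list, Tek, Vwf and Selp, were called higher in HSC, against 4.71% of all clusters. The choice of tables favoured this direction for 2 of the 3. The count is therefore a description and not evidence for the HSC label. Tek encodes the angiopoietin receptor that holds stem cells in their niche. Its values were 9.95, 9.94 and 10.28 in HSC WT, against 5.62 and 5.66 in LMPP WT, a difference of 4.42 (SE 0.34, adjusted p = 3.19e-07). The groups lay far apart and each was tight. Vwf, the platelet adhesion protein that also marks platelet-biased stem cells, had values of 8.61, 8.54 and 9.26 in HSC WT, against 5.52 and 5.81 in LMPP WT (difference 3.14, SE 0.32, adjusted p = 1.28e-05). All 3 HSC arrays again lay above both LMPP arrays, although the choice of tables favoured a lower value of Vwf in HSC. Selp, or P-selectin, was high in both cell types, at 12.26, 12.45 and 12.05 in HSC WT and 11.59 and 10.71 in LMPP WT (difference 1.11, adjusted p = 0.0398). Its call was lost without any 1 of HSC WT arrays 1, 2 and 3 or LMPP WT array 2, with adjusted p between 0.0587 and 0.521. In the knockouts, where 9.4% of all clusters were called higher and 9.22% lower in HSC, Tek and Vwf were higher in HSC by 3.45 and 4.07 and were called. Selp differed there by 0.34 and was not called. Kit, Flt3, Slamf1 and Cd48, which encode the sorting markers, were not analysed here.

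The largest named difference in favour of HSC was in Plxdc2, which encodes a membrane protein with a plexin-like domain. Plxdc2 had values of 11.21, 11.25 and 11.69 in HSC WT, against 6.17 and 5.82 in LMPP WT, a 42.0-fold difference (log2 5.39, SE 0.38, adjusted p = 1.07e-07). Its gap in the knockouts was 4.51. Slc14a1, a urea transporter, had values of 12.23, 12.01 and 12.70 in HSC WT, against 9.94 and 9.09 in LMPP WT (difference 2.80, adjusted p = 0.00517). Usp54, a gene of the ubiquitin-specific peptidase family, was nearly constant within each cell type, with 10.26, 10.18 and 10.22 in HSC WT and 7.69 on both LMPP WT arrays (difference 2.53, SE 0.31, adjusted p = 8.44e-05). Gimap4, a GTPase of the immunity-associated family best known from T cells, had 7.44, 7.53 and 9.46 in HSC WT, against 5.83 and 5.68 in LMPP WT (difference 2.39, adjusted p = 0.00922), so that HSC WT array 3 stood well above the other HSC arrays. It was the 1 called gene of the 2 on the T and natural killer cell list. The calls of Slc14a1 and Gimap4 were lost without LMPP WT array 2, with adjusted p of 0.0969 and 0.0856. Sytl5, a synaptotagmin-like protein of vesicle trafficking, was higher in HSC by 2.16. Snx14, a sorting nexin, was higher by 1.79, Scai, a repressor of invasion and of SRF co-activation, by 1.69, and Mtap7d3, a microtubule-associated protein, by 1.84.

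**Figure D1:**
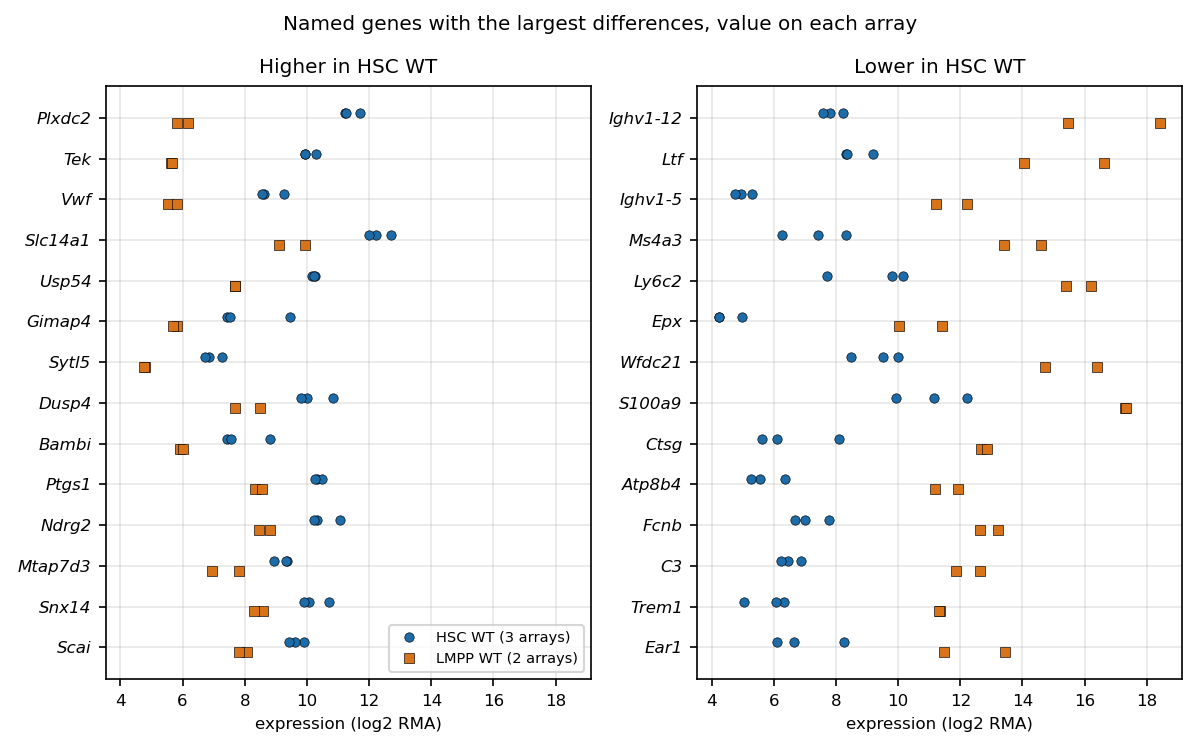
The 14 named genes with the largest called differences in each direction, with log2 expression on the horizontal axis and 1 point per array (circles, 3 HSC WT arrays; squares, 2 LMPP WT arrays). Genes were chosen for groups that do not overlap, as was the case for 33.7% of all clusters; the differences ran up to 5.39 for Plxdc2 on the left and down to -9.06 for Ighv1-12 on the right.

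Vwf, Dusp4, Ptgs1, Ndrg2 and Pim2 were the 5 genes higher in HSC although the tables favoured the opposite; Pim2 was singled out after its values were seen. Dusp4, a phosphatase that switches off MAP kinases, had values of 10.01, 10.82 and 9.82 in HSC WT, against 7.68 and 8.48 in LMPP WT (difference 2.14, adjusted p = 0.00876). Ptgs1, the constitutive cyclooxygenase of platelets and megakaryocytes, had 10.31, 10.50 and 10.25 in HSC WT, against 8.32 and 8.54 in LMPP WT (difference 1.92, adjusted p = 0.000969). Both were clear of the LMPP range on every HSC array. Ndrg2, a stress- and differentiation-associated gene, was higher by 1.89 (adjusted p = 0.00305) and Pim2, a survival kinase, by 1.13 (adjusted p = 0.0473). Pim2 lost its call without HSC WT array 2 or 3 or LMPP WT array 1, at differences of 0.55 to 1.19 and adjusted p of 0.0797 to 0.307. Over the knockout arrays these 5 genes were higher in HSC by 4.07, 1.90, 2.56, 2.04 and 1.23, in the order named above, values that this choice of tables also favoured. Ptgs1 was the only called member of the 2 named on the megakaryocyte list. Among 5 feedback inhibitors of signalling, Dusp4 and Bambi, a decoy receptor of the TGF-beta family, were higher in HSC and the other 3 were not called. Bambi differed by 1.94 in WT and by 0.54 in the knockouts, where it was not called (adjusted p = 0.0746).

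The opposite side of the comparison was led by granule and secretory genes of neutrophils. Of the 13 named on this list, 12 were tested and 10 were called lower in HSC, against 3.75% of all clusters. The median difference over the 12 was -5.64, against 0.02 over all clusters. The choice of tables favoured a lower value in HSC for 10 of the 12. Of all 141 named genes so favoured, 91 were called lower. Averaged over the knockout genotypes all 12 were lower in HSC, with a median of -3.54. The mean of the 13 named genes in LMPP was 11.22, 13.38 and 14.002 in alphaKO and 8.74, 11.49 and 8.47 in DKO. In deltaKO it was 7.75, 8.78 and 7.03 in LMPP, against 5.87, 7.635 and 6.91 in HSC. Over all knockout HSC arrays it ranged from 5.87 to 8.65, so the knockout HSC and LMPP ranges overlapped. The gap within each genotype was not tested. In bulk samples such as these, fewer cells of a type and less RNA per cell cannot be told apart.

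Ltf, the iron-binding lactoferrin of specific granules, had values of 9.19, 8.33 and 8.34 in HSC WT, against 16.62 and 14.05 in LMPP WT (difference -6.71, SE 1.66, adjusted p = 0.0189). S100a9, a subunit of calprotectin, had 12.21, 11.14 and 9.95 in HSC WT, against 17.31 and 17.35 in LMPP WT (difference -6.23, adjusted p = 0.0322). Both genes were well above the filter threshold in HSC too, and S100a9 varied more than Ltf among HSC arrays. Its partner S100a8 had 12.47, 11.68 and 10.10 in HSC WT, against 18.31 and 16.78 in LMPP WT (difference -6.13, adjusted p = 0.0559). Camp, the cathelicidin peptide precursor, had 12.96, 12.16 and 10.67 in HSC WT, against 18.19 and 16.67 in LMPP WT (difference -5.50, adjusted p = 0.0734). S100a8 and Camp did not pass the test in WT although their arrays did not overlap, a separation that 33.7% of all clusters showed. On both, HSC WT array 3 was the lowest HSC array. Wfdc21, a secreted whey acidic protein-type gene, differed by -6.24 (adjusted p = 0.00144), Fcnb, a lectin, by -5.77 (adjusted p = 0.00319), and Retnlg, a secreted resistin-like protein, by -5.26 (adjusted p = 0.00693). The complement gene C3, which was on no list, differed by -5.72 (adjusted p = 0.00168). Ltf lost its call without HSC WT array 2, HSC WT array 3 or LMPP WT array 1, with adjusted p of 0.0506 to 0.0697. S100a9 lost it without HSC WT array 2, HSC WT array 3 or LMPP WT array 2, with adjusted p of 0.0689 to 0.190, and Retnlg without LMPP WT array 2, with adjusted p of 0.131. Leaving out LMPP WT array 2, HSC WT array 3 or HSC WT array 2 left 8 of the 12 genes called, and leaving out LMPP WT array 1 left 7, as did a fit of the 5 WT arrays alone. Without both HSC WT array 3 and LMPP WT array 2 the count was 5, in female arrays only it was 3, and with array weights it was 1.

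Genes of the granulocyte and monocyte progenitor list, which also holds receptors of neutrophils and monocytes, showed the same direction. Of 6 named and tested, 5 were called lower in HSC in WT, against 3.75% of all clusters, with a median of -5.33 over the 6. Averaged over the knockout genotypes all 6 were called lower, against 9.22% of all clusters, with a median of -3.62. The choice of tables favoured a lower value in HSC for 4 of the 6. The count in WT was 5 with any single WT array left out and from the 5 WT arrays alone, 3 without both HSC WT array 3 and LMPP WT array 2, and 2 with array weights or in female arrays only. Ms4a3, a membrane protein that marks committed granulocyte-monocyte progenitors, had 7.42, 8.33 and 6.26 in HSC WT, against 13.41 and 14.60 in LMPP WT (difference -6.66, SE 1.06, adjusted p = 0.000793). Ly6c2, a surface protein of monocytes and their progenitors, had 9.80, 10.15 and 7.70 in HSC WT, against 16.20 and 15.41 in LMPP WT (difference -6.59, SE 1.42, adjusted p = 0.00795). Ly6c2 has a near-identical neighbour, so its signal may be shared with that gene. Trem1, a receptor that amplifies inflammation in neutrophils and monocytes, had 6.34, 6.06 and 5.05 in HSC WT, against 11.35 and 11.32 in LMPP WT (difference -5.52, SE 0.47, adjusted p = 1.68e-06). Trem3 belongs to the same receptor family and differed by -5.14 (adjusted p = 0.00124). Cebpe, the transcription factor of specific granule formation, had 4.64, 4.60 and 4.40 in HSC WT, below the filter threshold of 4.95, against 7.84 and 7.49 in LMPP WT (difference -3.12, adjusted p = 0.000556), and so passed the filter through other groups. Clec7a, the receptor for fungal glucans, did not pass, with a difference of -2.50 (adjusted p = 0.0985).

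For 8 of the genes lower in HSC, the choice of tables had favoured the opposite direction, among them Ctsg, Ms4a3, Ly6c2, Atp8b4 and Il10ra. Ctsg, the azurophil granule protease cathepsin G, had 6.12, 8.08 and 5.63 in HSC WT, against 12.67 and 12.85 in LMPP WT, and differed by -6.15 both in WT (SE 0.80, adjusted p = 0.000143) and in the knockouts. Atp8b4, which encodes a putative phospholipid-flipping ATPase, had 5.57, 6.35 and 5.27 in HSC WT, against 11.91 and 11.19 in LMPP WT (difference -5.82, SE 0.48, adjusted p = 9.30e-07). Its gap in the knockouts was -6.95. Ms4a3 and Ly6c2 differed by -6.89 and -7.55 in the knockouts. Il10ra, a subunit of the interleukin-10 receptor, differed by -2.15 in WT and in the knockouts. The choice that favoured a higher value in HSC WT also favoured a lower one in knockout HSC or a higher one in knockout LMPP, so the size of these knockout gaps partly follows from it.

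The bases before the starts of the genes with the largest named differences are shown as the nearest regulatory sequence of the genes that carry the comparison. RefSeq windows on GRCm38.p6 cover the 250 bases upstream of the start, 5′ to 3′ on the gene's strand, and capitals mark matches on either strand to 1 of 5 core motifs. The motifs were TTGCNNAA for C/EBP factors, GAGGAAGT for PU.1, CAGGAAGT for other ETS factors, AGATAA for GATA factors and TGTGGT for RUNX factors; no motif contains another. Of the 3 genes per direction with the largest difference and an entry in the table, the windows of Tek (chr4:94739039-94739288, plus strand) and Ms4a3 (chr19:11640852-11641101, minus strand) held no match. The windows with a match were those of Usp54 (chr14:20618355-20618604, minus strand) and Gimap4 (chr6:48684328-48684577, plus strand), higher in HSC, and those of Ltf (chr9:111019042-111019291, plus strand) and Ly6c2 (chr15:75111972-75112221, minus strand, the first of 2 starts listed), lower in HSC.
Usp54: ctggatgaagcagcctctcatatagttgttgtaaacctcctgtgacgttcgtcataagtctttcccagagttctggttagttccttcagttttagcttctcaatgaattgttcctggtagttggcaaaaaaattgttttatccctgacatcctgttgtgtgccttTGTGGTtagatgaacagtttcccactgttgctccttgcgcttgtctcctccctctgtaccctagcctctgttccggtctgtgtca
Gimap4: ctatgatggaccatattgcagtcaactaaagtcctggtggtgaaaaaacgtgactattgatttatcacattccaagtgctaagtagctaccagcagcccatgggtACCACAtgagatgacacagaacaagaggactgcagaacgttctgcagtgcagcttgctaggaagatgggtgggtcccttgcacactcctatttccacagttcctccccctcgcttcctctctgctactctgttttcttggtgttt
Ltf: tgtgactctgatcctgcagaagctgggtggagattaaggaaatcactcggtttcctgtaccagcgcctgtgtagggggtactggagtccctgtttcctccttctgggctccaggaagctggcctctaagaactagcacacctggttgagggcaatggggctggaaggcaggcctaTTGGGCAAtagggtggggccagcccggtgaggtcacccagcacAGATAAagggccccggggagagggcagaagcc
Ly6c2: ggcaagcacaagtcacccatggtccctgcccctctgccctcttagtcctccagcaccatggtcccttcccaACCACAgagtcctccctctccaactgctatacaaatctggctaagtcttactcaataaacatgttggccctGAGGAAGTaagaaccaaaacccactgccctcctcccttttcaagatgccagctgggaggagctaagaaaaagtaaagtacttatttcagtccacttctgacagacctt
The Ltf window held a C/EBP match from -75 to -68 and a GATA match from -32 to -27, counted from the start. The Ly6c2 window held a PU.1 match from -108 to -101 and a RUNX match from -179 to -174. Usp54 and Gimap4 each held 1 RUNX match. The C/EBP core was present in 14 of 64 windows of named genes lower in HSC (21.9%), in 2 of 36 windows of those higher in HSC (5.56%), and in 9.55% of the windows of all 27025 genes. The PU.1 core was present in 10.9% of the windows of genes lower in HSC, in 2.78% of those higher in HSC and in 2.44% of all windows. For the ETS core the shares were 6.25%, 2.78% and 2.73%, for the GATA core 18.8%, 2.78% and 10.3%, and for the RUNX core 20.3%, 8.33% and 14.2%, in the same order. The shares describe letters in these windows, and were not tested.

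Genes of other myeloid cells followed. Of 4 mast cell, basophil and eosinophil genes, 3 were called lower in HSC, against 3.75% of all clusters, with a median over the 4 of -4.42. The choice of tables favoured a lower value in HSC for 3 of the 4. Averaged over the knockout genotypes all 4 were called lower in HSC, against 9.22% of all clusters, with a median of -3.06. The mean of the 4 genes in LMPP was 11.18, 9.28 and 10.19 in alphaKO and 6.79, 8.145 and 5.96 in deltaKO. In DKO LMPP it was 7.52, 11.69 and 7.19, and over all knockout HSC arrays it ranged from 5.35 to 6.04. Epx, or eosinophil peroxidase, had 4.25, 4.97 and 4.25 in HSC WT, against 10.04 and 11.42 in LMPP WT (difference -6.24, SE 1.28, adjusted p = 0.00582). Its HSC WT mean was below the filter threshold of 4.95, so it passed the filter through other groups. Ear1, a ribonuclease of eosinophil granules with several close paralogs that could share its probes, differed by -5.46 (adjusted p = 0.0202). Hdc, the enzyme that makes histamine, differed by -3.39 (SE 0.54, adjusted p = 0.000738). Cpa3, the mast cell carboxypeptidase that is also present in early progenitors, overlapped between the groups, with 7.47, 8.27 and 8.47 in HSC WT and 7.91 and 9.78 in LMPP WT (difference -0.77, adjusted p = 0.626). Only 1 of the 4 genes was called without LMPP WT array 2: Epx had an adjusted p of 0.0886 there and Ear1 of 0.242, while the difference of Cpa3 became 0.16. Ear1 also lost its call without HSC WT array 1 or 3, with the smallest such adjusted p at 0.0538. Vcam1 and Slc40a1, an adhesion molecule and the iron exporter of macrophages, were the 2 named macrophage genes and differed by -2.77 (adjusted p = 0.00983) and -1.52 (adjusted p = 0.00441). Both lay below the filter threshold on every HSC WT array and passed it through other groups. The choice of tables favoured a lower value in HSC for both. Neither was called without both HSC WT array 3 and LMPP WT array 2. The call of Vcam1 was lost without LMPP WT array 2 (adjusted p = 0.160). No erythroid gene of the list could be named.

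Immunoglobulin genes gave the largest named difference of all. The B cell and immunoglobulin list had 23 named members, of which 15 were tested. All 15 were called lower in HSC WT, against 3.75% of all clusters, with a median of -2.42. The tables favoured this direction for all 15, and for 5 of them the HSC WT mean was below the filter threshold, so the count partly follows from both choices. In the knockouts 9 of the 15 were called lower in HSC, against 9.22% of all clusters, with a median of -0.70. The mean of the 23 genes was 5.06, 5.03 and 4.94 in HSC WT, against 7.68 and 8.90 in LMPP WT. It ranged from 5.02 to 5.36 in knockout HSC and from 5.34 to 7.40 in knockout LMPP, so that both LMPP WT arrays lay above every knockout array. The list was named for such a difference between WT and knockouts, so this order is a description only. Ighv1-12, a heavy chain variable segment, had 8.23, 7.82 and 7.59 in HSC WT, against 15.46 and 18.42 in LMPP WT, a 533-fold difference (log2 -9.06, SE 0.88, adjusted p = 7.95e-06). Its gap in the knockouts was -4.34. Ighv1-5 had 5.29, 4.93 and 4.77 in HSC WT, against 11.21 and 12.21 in LMPP WT (difference -6.71, SE 0.69, adjusted p = 1.28e-05), and a knockout gap of -1.38. For each of these segments the higher LMPP value was on array 2. Jchain, the chain that joins secreted antibody multimers and also an early lymphoid priming gene, had 4.92, 4.62 and 4.84 in HSC WT, against 8.39 and 11.00 in LMPP WT (difference -4.90, SE 0.74, adjusted p = 0.000518). Jchain lay below the filter threshold on every HSC WT array and passed it through other groups. It was the only gene named on the LMPP and early lymphoid list, and its knockout gap of -1.04 was not called (adjusted p = 0.0675). The kappa segment Igkv14-111 differed by -4.42 in WT (adjusted p = 0.000294) and by -0.75 in the knockouts (adjusted p = 0.123). Variable segments are close paralogs, so probes may be shared among them and each value is uncertain for the single segment. Of the 15 genes, 12 were called without LMPP WT array 2, 10 without both it and HSC WT array 3, 9 with array weights, 7 from the 5 WT arrays alone and 4 in female arrays only.

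**Figure D2:**
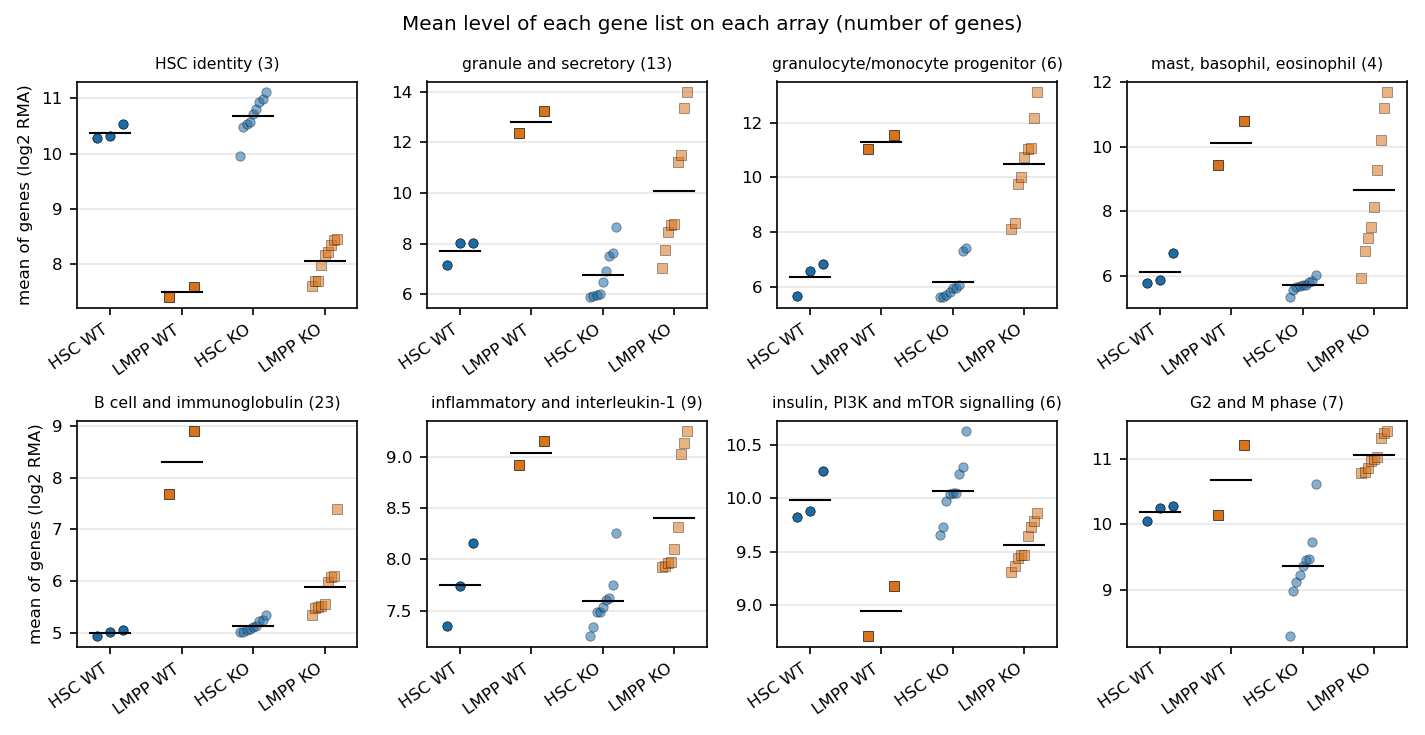
Mean log2 expression of the named members of 8 gene lists, 1 point per array within a group and a bar at the group mean, for HSC WT (3 arrays), LMPP WT (2), HSC KO (9) and LMPP KO (9); the vertical scale differs between panels. Granule genes averaged 7.14 to 8.01 in HSC WT and 12.4 to 13.2 in LMPP WT, and the B cell and immunoglobulin list was highest on the LMPP WT arrays.

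Inflammatory and interleukin-1 genes were mostly lower in HSC, at 5 of 9, with 1 higher (Ptgs1) and a median of -1.45. Over all clusters 3.75% were called lower, and the choice of tables favoured a lower value in HSC for 7 of the 9 genes. Of all 141 named genes so favoured, 91 were called lower. Of the 5, 1 had an HSC WT mean below the filter threshold. In the knockouts 6 were lower and 1 was higher. Il1r1, the signalling receptor for interleukin-1, had 5.82, 6.76 and 5.52 in HSC WT, against 9.79 and 8.14 in LMPP WT (difference -2.94, SE 0.48, adjusted p = 0.00101). The decoy receptor Il1r2 differed by -2.36 (adjusted p = 0.00421). The cytokine Il1b itself had 5.08, 4.97 and 4.89 in HSC WT, against 6.94 and 6.38 in LMPP WT (difference -1.68, adjusted p = 0.0403). Receptor and ligand thus lay on the same side. The inducible cyclooxygenase Ptgs2 did not pass, at 9.91, 9.61 and 9.30 in HSC WT and 10.16 and 10.45 in LMPP WT (difference -0.70, adjusted p = 0.139). Its constitutive counterpart Ptgs1 was higher in HSC, as above. The chemokine Cxcl16 differed by -1.01 in WT (adjusted p = 0.0227) and by 0.22 in the knockouts. Il1b lost its call without any 1 of the 5 WT arrays (adjusted p 0.0744 to 0.125), and Cxcl16 without any but HSC WT array 2 (adjusted p 0.0509 to 0.0766). Leaving out any single WT array left 3 or 4 of the 9 lower, array weights left 2, and a fit of the 5 WT arrays alone left 1.

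Adhesion genes were mostly lower in HSC, at 5 of 7, with Selp as the 1 higher and a median of -1.66. Over all clusters 3.75% were called lower, and the choice of tables favoured a lower value in HSC for 6 of the 7 genes. Of all 141 named genes so favoured, 91 were called lower. Of the 5, 2 had an HSC WT mean below the filter threshold. In the knockouts 4 were lower and 1 was higher. Itgam, the integrin alpha chain CD11b of myeloid cells, had 7.66, 7.80 and 7.53 in HSC WT, against 11.84 and 10.61 in LMPP WT (difference -3.56, SE 0.58, adjusted p = 0.000877). Its beta chain partner Itgb2 differed by -1.66 (adjusted p = 0.0319), the hyaluronan receptor Cd44 by -1.59 (adjusted p = 0.00465) and the neural adhesion molecule Ncam1 by -1.72 (adjusted p = 0.00163). Vcam1 was the fifth. Ncam2, of the same family as Ncam1, had 6.27, 6.14 and 6.50 in HSC WT, against 5.0 and 5.34 in LMPP WT (difference 1.13, adjusted p = 0.129), and was higher in knockout HSC than in knockout LMPP by 2.98 (adjusted p = 5.36e-08). Itgb2 lost its call without any 1 WT array except LMPP WT array 2, with adjusted p of 0.0580 to 0.158. The calls of Selp and Vcam1 were lost without LMPP WT array 2 (adjusted p = 0.521 and 0.160). From the 5 WT arrays alone 1 of the 7 was called lower, and with array weights none was called in either direction.

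Genes of insulin, PI3K and mTOR signalling, the pathway that p110α and p110δ serve, included no gene called lower in HSC, with differences from -0.25 to 1.70. Of 6 named, 3 were called higher in HSC, against 4.71% of all clusters, and none lower, with a median of 1.18. The tables favoured a higher value in HSC for 5. The same number, 3 of 6, were called higher in knockout HSC, against 9.4% of all clusters, with a median of 0.37. Deptor, an inhibitor that binds mTOR, had 9.57, 9.99 and 10.11 in HSC WT, against 8.20 and 8.24 in LMPP WT (difference 1.67, SE 0.18, adjusted p = 2.89e-05). Rictor, the defining subunit of mTOR complex 2, had 10.95, 11.22 and 10.61 in HSC WT, against 10.04 and 9.26 in LMPP WT (difference 1.28, adjusted p = 0.00912). Insr, the insulin receptor, had 9.37, 9.33 and 9.30 in HSC WT, against 8.58 and 7.92 in LMPP WT (difference 1.09, adjusted p = 0.0178). Deptor was even between the LMPP WT arrays, while Rictor and Insr were lower on LMPP WT array 2 than on array 1. Rictor and Insr lost their calls without that array (adjusted p = 0.205 and 0.296), and differed by 0.46 and 0.28 in the knockouts, against 1.14 for Deptor. The adaptor Irs2 had a larger difference of 1.70 that did not pass (adjusted p = 0.112), with HSC values spread over 11.92, 12.69 and 11.37. Sesn1, a stress-induced inhibitor of mTOR complex 1, differed by 0.78 (adjusted p = 0.137), and passed the test only where LMPP WT array 2, which stood apart, was the sole LMPP WT array (1.29 without LMPP WT array 1 and 1.33 in male arrays only). From the 5 WT arrays alone none of the 6 was called, and with array weights 1 was.

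FOXO targets, which insulin and PI3K signalling restrain, gave no common direction: of 10, Insr and Rictor were higher, Bcl6 was lower and the median was -0.15. Bcl6, a transcriptional repressor, had 5.76, 6.48 and 5.78 in HSC WT, against 7.45 and 7.17 in LMPP WT (difference -1.31, SE 0.23, adjusted p = 0.00161). Of 5 p53 targets only Pmaip1 was called, and its HSC WT mean was below the filter threshold. Pmaip1 encodes the pro-apoptotic protein Noxa and differed by -1.82 (adjusted p = 0.0120, or 0.0506 without LMPP WT array 1). The immediate early and quiescence list had no call among 4 genes. Nr4a1, an orphan nuclear receptor associated with quiescence, was near the top of the scale at 17.33, 17.90 and 16.73 in HSC WT, against 16.37 and 16.41 in LMPP WT (difference 0.93, adjusted p = 0.222). Klf4 differed by 1.08 (adjusted p = 0.217); both genes were called higher in knockout HSC, by 1.03 and 1.00. None of 4 genes of handling stress was called, and their differences ran only from -0.47 to -0.22.

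Both named interferon-response genes were higher in HSC WT, as were 4.71% of all clusters. The choice of tables favoured this direction for both genes. Ifit2, an interferon-induced inhibitor of translation, differed by 1.26 (adjusted p = 0.0351), and Ddx58, which encodes the RNA sensor RIG-I, by 1.30 (adjusted p = 0.0246). In the knockouts they differed by 0.22 and 0.47 and were not called. Ifit2 lost its WT call without HSC WT array 1 or 3 or LMPP WT array 2 (adjusted p 0.0874 to 0.407), and Ddx58 without HSC WT array 2 or 3 or LMPP WT array 2 (adjusted p 0.0510 to 0.298). Of 4 lysosome and trafficking genes, Sytl5 and Vps13c, a lipid transfer protein, were higher in HSC. For 1 of these 2 called genes the LMPP WT mean was below the filter threshold, so that gene passed the filter through other groups. The choice of tables favoured a higher value in HSC for 3 of the 4. Vps13c differed by 0.83 in WT (adjusted p = 0.0113, or 0.172 without LMPP WT array 2) and by 0.03 in the knockouts. No nuclear-encoded mitochondrial gene of the list could be named, and the 1 gene named on the S phase list was not called.

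Mitotic genes gave no call in WT although LMPP are known to divide more often than HSC. All 7 named G2 and M phase genes had negative differences, between -0.90 and -0.27 with a median of -0.41. The choice of tables favoured the opposite direction for all 7. Kif11, a motor that separates the spindle poles, had 12.22, 11.96 and 12.23 in HSC WT, against 13.05 and 11.98 in LMPP WT (difference -0.38, SE 0.46, adjusted p = 0.626). Ect2, an activator of cytokinesis, had 9.91, 9.72 and 9.43 in HSC WT, against 11.26 and 9.91 in LMPP WT (difference -0.90, SE 0.52, adjusted p = 0.278). Top2a, the topoisomerase of dividing cells, had 12.55, 11.82 and 12.49 in HSC WT, against 13.47 and 11.92 in LMPP WT (difference -0.41, adjusted p = 0.572). The LMPP WT pair split on every such gene: array 1 lay above the HSC WT arrays and array 2 among or near them. The kinetochore genes Cenpe and Bub1 differed by -0.50 and -0.48, the chromosome motor Kif4 by -0.41 and the spindle pole gene Aspm by -0.27. The mean of the 7 genes was 10.28, 10.04 and 10.25 in HSC WT, against 11.21 and 10.14 in LMPP WT. Without LMPP WT array 2 the median difference was -1.03, still with no call, and without LMPP WT array 1 the differences of Cenpe, Bub1, Top2a and Kif11 were 0.22, 0.06, 0.37 and 0.15.

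In the knockouts all 7 mitotic genes were called lower in HSC, with a median of -1.54. The tables had listed all 7 for a change of the kind that widens this gap, lower in knockout HSC or higher in knockout LMPP than in WT, so the larger knockout gap and its test against the WT gap describe genes chosen for that pattern. Their mean ranged from 8.30 to 10.61 over the 9 knockout HSC arrays and from 10.78 to 11.42 over the 9 knockout LMPP arrays. Kif11 differed there by -1.75 (adjusted p = 2.76e-05) and Ect2 by -2.65 (adjusted p = 9.86e-07). The WT gap minus the knockout gap was 1.36 for Kif11 (adjusted p = 0.278), in a test that called 0.0515% of all clusters, and the smallest adjusted p of this test among the 7 genes was 0.261. The outcome of this test turned on which LMPP WT array was in the fit. With LMPP WT array 2 as the sole LMPP WT array, Ect2, Top2a and Kif11 were called, at 2.42, 1.83 and 1.90 (adjusted p = 0.0199, 0.0187 and 0.0388), and the other 4 were not. Without LMPP WT array 2 the values of the 7 genes lay between 0.27 and 1.07, with no call (adjusted p = 0.9999). A p above the threshold does not show that the gaps were alike.

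**Figure D3:**
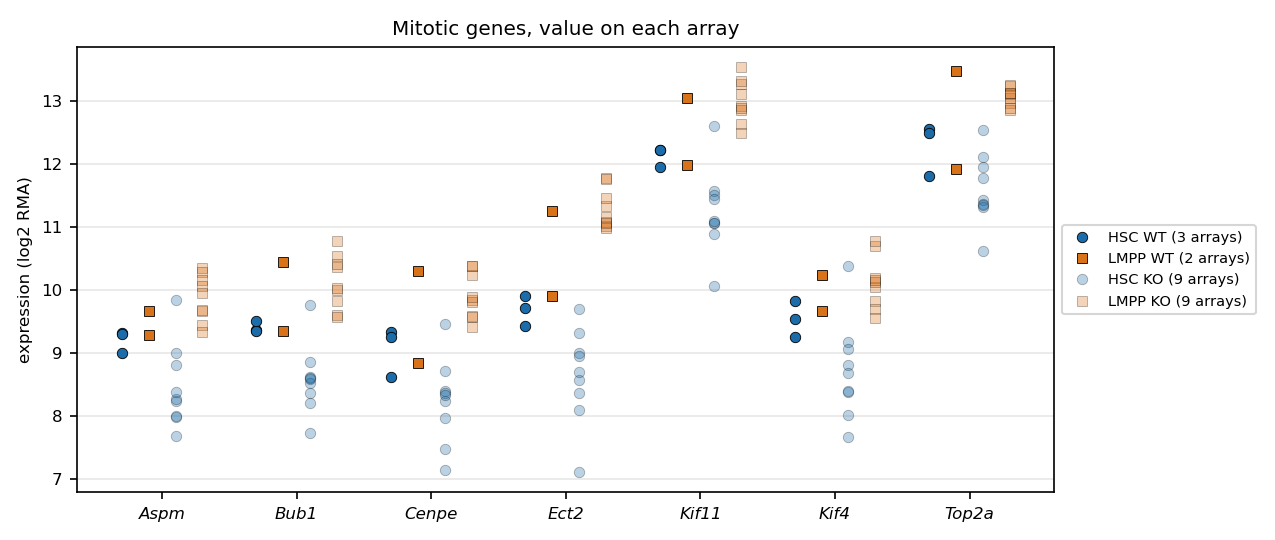
Log2 expression of 7 mitotic genes (horizontal axis) on each array, for HSC WT (3 arrays, dark circles), LMPP WT (2, dark squares), HSC KO (9, pale circles) and LMPP KO (9, pale squares). The LMPP WT arrays are far apart for Kif11, at 13.05 and 11.98, and the HSC WT arrays lie between 11.96 and 12.23.

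Across all clusters, the WT differences were set beside the differences in the knockouts, which share no array with them. Both came from 1 fit with 1 estimate of spread per cluster, so the calls in WT and in the knockouts are not independent. The share of all clusters with the same sign was not computed. Pearson's r across the 32978 clusters was 0.678 and Spearman's rho 0.441; clusters are not independent replicates and share the arrays they were measured on. Of the 2789 clusters called in WT, 2551 (91.5%) had the same sign in the knockouts, and 1776 were called there in the same direction. These made up 63.7% of the WT calls and 28.9% of the 6139 knockout calls (18.6% of clusters tested). Another 9 were called in opposite directions. Among the named genes, 89 of the 101 lower in HSC WT were also called in the knockouts, and 100 had the same sign. Of the 49 higher in HSC WT, 28 were called and 44 had the same sign. Over all 150 the knockout difference had a median of 0.51 times the WT difference, in a set that was chosen for differing between WT and knockout.

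**Figure D4:**
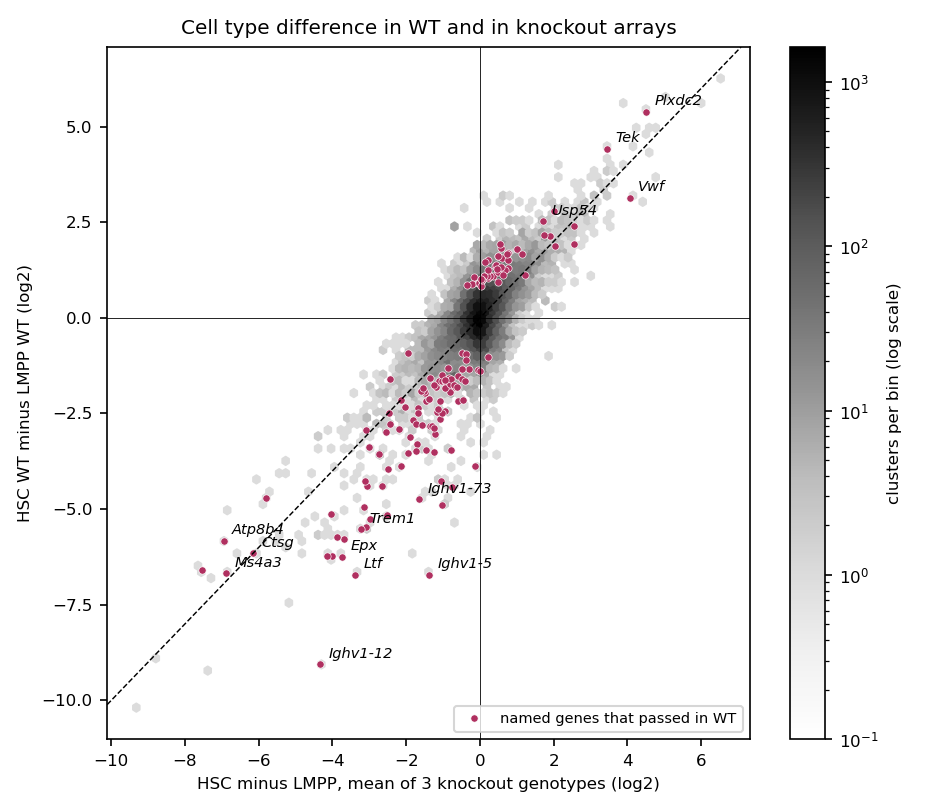
HSC minus LMPP log2 difference in WT (vertical axis) against the mean difference in the 3 knockout genotypes (horizontal axis), with all 32978 clusters as shaded hexagons and the 150 named genes that were called in WT as points; the dashed line marks equal differences. Ctsg lies on the line at -6.15 on both axes, whereas Ighv1-5 has -6.71 in WT and -1.38 in the knockouts.

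The clusters below, to which the tables give no symbol, had larger differences than the named genes above in the same direction. Clusters with a symbol that was not used as a name were not compared. A cluster of chromosome 12, TC1200002542.mm.1, had 5.08, 5.61 and 4.72 in HSC WT, against 15.01 and 15.64 in LMPP WT (difference -10.19, SE 0.52, adjusted p = 5.58e-09). It differed by -9.32 in the knockouts. On chromosome 2, TC0200001227.mm.1 had 5.05, 9.05 and 5.08 in HSC WT, against 14.89 and 16.28 in LMPP WT (difference -9.19, adjusted p = 0.00297), with HSC WT array 2 apart from the other HSC arrays. Higher in HSC, TC0100001600.mm.1 on chromosome 1 had 11.42, 11.80 and 11.68 in HSC WT, against 4.80 and 5.96 in LMPP WT (difference 6.26, SE 0.37, adjusted p = 1.80e-08). The cluster TC0800001483.mm.1 on chromosome 8 was higher by 5.81 (adjusted p = 8.80e-06).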

How the data were processed

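The deposited series table holds log2 expression values per transcript cluster of the Affymetrix Mouse Transcriptome Assay 1.0 array, made by the authors with RMA in Expression Console, per the labels. Transcriptome Analysis Console is also named in the submitters' processing notes. Tool versions, genome build and array annotation were not given in the sources used here. Per the file headers, the authors' 6 comparison tables, used only for gene symbols and the direction listed, hold biweight average log2 signals, a signed fold change (treated here as a score) and an unadjusted and an FDR p-value; their overlap lists were not used. They list 1617 clusters, 561 with a symbol and 524 with exactly 1. Clone names, predicted genes, receptor families and small RNAs were not used as names, which left 303; 297 were found in the RefSeq gene table and 295 on the chromosome of the cluster's identifier.

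Of 72688 rows, 6732 array controls were left out. The 32978 clusters whose mean over the 23 arrays reached the median of such means, log2 4.95, were tested with limma 3.58.1 (lmFit, eBayes) in R 4.3.3, with 8 group means, 15 residual degrees of freedom and Benjamini-Hochberg adjustment over all clusters tested. SE is the fit's standard error. Contrasts were HSC WT minus LMPP WT, HSC minus LMPP averaged over the 3 knockout genotypes, and their difference. The fit was tested on simulated data in which every array of a cluster had the same spread, so that test does not cover arrays that stand apart. Named genes were up to 14 per direction with the largest called difference and no overlap between arrays, every tested list member, up to 5 with the smallest p for the contrast between WT and knockout gaps, and up to 2 clusters without a symbol per direction; the text gives examples. The members and the 23 gene lists were chosen with earlier results of these data known. The number of arrays limits the precision. Figures and sequence windows were made in Python 3.11.15 (matplotlib 3.10.9, numpy 2.4.6, pandas 2.3.3). Alternatives covered the arrays in the fit, sex, array weights, scaling and centring, the filter, the variance model, identical clusters and a minimum fold of 1.5.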

Additional observations from a re-analysis of the deposited data

Results flagged for a closer look

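The HSC minus LMPP difference differed between WT and the knockouts, by limma's test of the 2 differences at an adjusted p below 0.05, for 17 clusters, or 0.0515% of those tested; 14.8% had an unadjusted p below 0.05. Of the 17, 10 had a positive and 7 a negative value of the WT gap minus the knockout gap, and 5 could be named. The positive calls were mostly lost: there were 0 positive and 6 negative without HSC WT array 1, 1 and 3 without HSC WT array 2, 0 and 3 without HSC WT array 3 or with array weights, 0 and 8 without LMPP WT array 2, and 1 and 16 with no filter on low values. They numbered 3015 positive and 2784 negative without LMPP WT array 1. For Ighv1-79 this value was -1.58 (SE 0.16, adjusted p = 0.000423), for Ighv1-62-1 it was -3.19 (adjusted p = 0.000761) and for Ighv1-73 -3.09 (adjusted p = 0.000844). These 3 immunoglobulin heavy chain variable genes were called under all 11 alternatives computed for this contrast. Ighv1-5, another such segment, had -5.34 (adjusted p = 0.0174) and lost its call under 4 of the 11 alternatives: without HSC WT array 2, HSC WT array 3 or LMPP WT array 2, and with array weights (adjusted p 0.0591 to 0.808). Cysltr1, a receptor for cysteinyl leukotrienes, had -1.05 (adjusted p = 0.0439): its values were 4.47, 4.67 and 4.70 in HSC WT, against 6.05 and 5.86 in LMPP WT, and its knockout gap was -0.29. On every HSC WT array Cysltr1 lay below the filter threshold of 4.95. It lost its call under 7 of the 11 alternatives. All 5 genes had entered the authors' tables because knockout LMPP or HSC differed from these same WT arrays. No WT group held enough arrays for a check of single outlying arrays.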

How the results depend on the processing

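The number of clusters called between HSC WT and LMPP WT, 2789 as reported, depended on the arrays in the fit. It was 226 from the 5 WT arrays alone, 221 of them shared with the 2789, and 1075 to 8422 when 1 WT array was left out. It was 653 without both HSC WT array 3 and LMPP WT array 2, an alternative chosen after seeing the data. In a fit of 1 mean per group and sex, with 7 residual degrees of freedom, it was 159 in female arrays only (1 array against 1) and 6342 in male arrays only (2 HSC arrays against LMPP WT array 2). It was 278 with array weights, 4323 with no filter on low values and 385 against a 1.5-fold difference. Leaving out 1 LMPP array leaves a lone array, which is assumed to vary like the other groups; otherwise the cause was not tested. Sex as a covariate, quantile normalization, median centring, a filter on the WT arrays, a trended and robust variance and counting identical clusters once kept the count within 1.5 times. The knockout count, 6139 as reported, was 9281 with array weights. The 17 clusters whose gap differed between WT and the knockouts numbered 3 to 5799 when 1 WT array was left out, and 3 with array weights. Of the 59 called genes with values in the text, none changed sign under the 18 alternatives; 30 remained called from the WT arrays alone, 44 without LMPP WT array 2, 19 with array weights and 59 with sex as a covariate. Among uncalled genes, Cpa3 became 0.16 without LMPP WT array 2 (range over single arrays left out -1.71 to 0.16). The corresponding ranges were -1.23 to 0.22 for Cenpe, -1.03 to 0.0575 for Bub1, -1.18 to 0.37 for Top2a and -0.91 to 0.15 for Kif11, each positive without LMPP WT array 1. In male arrays only, Cenpe was 0.0917, Bub1 0.0789, Kif4 0.0158, Top2a 0.24 and Kif11 0.11. No paired analysis was made, because the labels do not say which HSC and LMPP arrays, if any, came from the same pool.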
